A study of Mus musculus with 27 samples.

Results

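Atoh7, Foxn4, Neurog2, Olig2, Ptf1a, Neurod4, Insm1 and Neurod2 encode transcription factors that act in neurogenic progenitors and newly generated neurons of the retina. They were chosen as named genes, by matching the gene symbol, and gave 8 of the 38168 features in the table. Each symbol had 1 entry. Transcript levels were followed by RNA-seq in whole retinas of wild type C57BL/6J mice, kept on a light and dark cycle, at 7 ages: embryonic day 14 (E14, 3 libraries), E17 (3), postnatal day 1 (P1, 4), P6 (3), P15 (4), P28 (4) and P60 (6). No treatment or mutation was part of the groups compared here. Most libraries came from pooled retinas, although some at P60 came from single mice. Mice up to P1 were of mixed sexes and older mice were males, so that the change in sex at the step from P1 to P6 cannot be told apart from age.

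Basic helix-loop-helix (bHLH) factors bind DNA as dimers, usually of a tissue-restricted protein with a widely expressed E protein, at the E-box CANNTG. Proneural bHLH factors promote exit from the cell cycle and neuronal fate, and are opposed by Notch signaling through Hes repressors and by Id proteins, which sequester E proteins. In the retina, cell types arise in a conserved, overlapping order from progenitors whose competence changes with time. Atoh7 is required for the genesis of ganglion cells. Foxn4, a forkhead protein and not a bHLH factor, gives competence for horizontal and amacrine cells and acts upstream of Ptf1a, a bHLH factor of the same lineages. Neurog2 and Olig2 mark neurogenic progenitors. Neurod4 acts in amacrine and bipolar cell genesis, Neurod2 is found in subsets of amacrine and ganglion cells, and Insm1 is a zinc finger protein of newly formed neurons and endocrine cells.

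To show the regions from which these genes are transcribed, sequences before the transcript start were taken from RefSeq (mouse build GRCm38.p6), where 7 of the 8 genes matched and Insm1 did not. The 250 bases before the start are given for 4 genes that represent different time courses. Atoh7 declined first, Neurog2 was lost postnatally, Neurod4 was highest around birth and Neurod2 was retained in the adult. Each runs 5′ to 3′ on the strand of the gene, with E-boxes in capitals. The windows are chr10:63099535-63099784 (plus strand) for Atoh7, chr3:127632886-127633135 (plus strand) for Neurog2, chr10:130280255-130280504 (minus strand) for the first of the RefSeq starts of Neurod4 and chr11:98329646-98329895 (minus strand) for Neurod2.
Atoh7: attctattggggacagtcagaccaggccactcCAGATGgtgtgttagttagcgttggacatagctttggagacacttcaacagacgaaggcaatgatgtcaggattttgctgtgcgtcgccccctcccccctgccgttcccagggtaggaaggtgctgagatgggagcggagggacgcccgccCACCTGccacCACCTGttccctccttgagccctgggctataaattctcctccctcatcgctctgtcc
Neurog2: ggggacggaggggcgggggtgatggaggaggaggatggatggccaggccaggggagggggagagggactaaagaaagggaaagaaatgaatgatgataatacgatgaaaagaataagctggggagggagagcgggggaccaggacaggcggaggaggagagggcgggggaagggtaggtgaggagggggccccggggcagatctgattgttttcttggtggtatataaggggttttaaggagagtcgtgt
Neurod4: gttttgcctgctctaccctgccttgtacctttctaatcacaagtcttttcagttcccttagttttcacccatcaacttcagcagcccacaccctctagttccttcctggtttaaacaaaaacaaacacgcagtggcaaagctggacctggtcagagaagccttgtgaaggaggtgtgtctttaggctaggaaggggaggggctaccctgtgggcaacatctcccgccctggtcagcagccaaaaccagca
Neurod2: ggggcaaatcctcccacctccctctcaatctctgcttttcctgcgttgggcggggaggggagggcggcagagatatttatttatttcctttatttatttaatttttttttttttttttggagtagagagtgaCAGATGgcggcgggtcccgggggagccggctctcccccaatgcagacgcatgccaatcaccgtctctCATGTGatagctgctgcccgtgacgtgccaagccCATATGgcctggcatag
The search for CANNTG, which reads the same on both strands, found 3 E-boxes in the Atoh7 window and 3 in the Neurod2 window, and 0 in those of Foxn4, Neurog2, Olig2, Ptf1a and Neurod4. In Atoh7 these were CAGATG, starting 218 bases before the transcript start, and CACCTG, starting 67 and 57 bases before it. In Neurod2 they were CAGATG at 118 bases, CATGTG at 51 bases and CATATG at 17 bases. Among 32851 mouse promoter windows of the same length, 66.2% held at least 1 E-box and 12.2% held at least 3. TATAAA, on either strand, was present in the windows of Atoh7 and Olig2 and in 12.4% of all windows. TGGGAA, the core of sites for the Notch effector RBPJ, was present on either strand in those of Atoh7 and Ptf1a and in 21.6% of all windows. These are matches of letters and not mapped binding sites. The starts differ between annotations, since 134 bases of the Atoh7 window, with both CACCTG boxes, lie inside the gene as GENCODE vM21 places it, and 1 base of the Neurog2 window and 3 of the Neurod2 window do so.

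The libraries held 7076646 to 11330762 reads over the listed features (median 7968785), recovered from the steps of the deposited CPM values (read counts scaled to a common library total), so that 1 read was worth 0.0882 to 0.141 CPM. A count of 0 allows up to 3 reads, or at most 0.424 CPM, and this limit covers counting error only. Retinal identity was checked with 5 markers, all of which were detected, and their summed level was 640.1 to 656 CPM at E14 and 16273 to 20051 CPM at P60. Markers of other tissues were low. Summed levels were 1.55 to 7.36 CPM for 3 of 5 lens genes in the table. Of these, Cryaa averaged 0 to 0.527 CPM over the ages, with 3.16 CPM in its highest library, at P60. Sums were 2.12 to 47.0 CPM for 5 genes of the retinal pigment epithelium, with Mlana near 0 and the higher sums from P6 onward. For 4 of 5 blood genes in the table, the sums were 10.7 to 49.9 CPM and were mostly higher from P6 onward. The part of these tissues in the results was not tested. In whole tissue, fewer cells of a type and less RNA per cell cannot be told apart.

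The highest mean was at different ages, Atoh7 and Foxn4 at E14, Neurog2, Olig2 and Ptf1a at E17, Neurod4 at P1, Insm1 at P6 and Neurod2 at P15. Among the 31760 features that passed the filter on low values (at least 1 CPM in at least 3 libraries), 23.7% peaked at E14, 10.5% at E17, 14.1% at P1, 13.2% at P6 and 13.1% at P15. For 6 of the 8 genes the peak age did not differ from the next highest age by limma, including Foxn4 at E14 and E17 (adjusted p = 0.24), Neurog2 at E17 and E14 (adjusted p = 0.77) and Ptf1a at E17 and P1 (adjusted p = 0.096), and only Atoh7 and Insm1 had a peak that did. All 8 genes passed this filter. All 8 varied with age (limma F test, adjusted p under 0.05), as did 83.0% of features, so that variation as such did not set them apart.

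**Figure D1:**
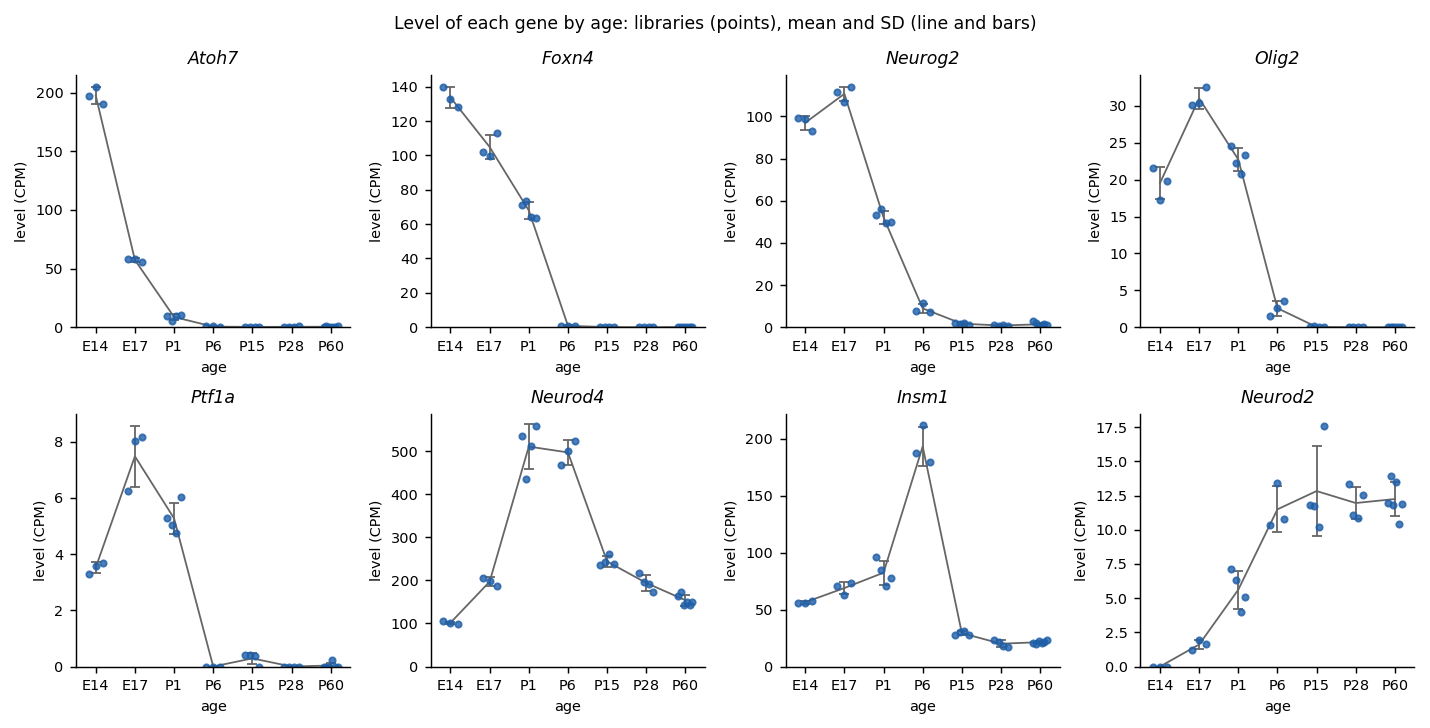
Level of each gene in CPM (linear axis, starting at 0 and scaled to each gene) at 7 ages; points are libraries, the line joins age means and bars are the SD. Atoh7 falls from 197 CPM at E14 to 8.73 CPM at P1, whereas Neurod2 rises from 0 reads at E14 to 12.2 CPM at P60.

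Atoh7 (chr10:63099651-63101279, plus strand) was the first to decline. This locus and those that follow are from GENCODE vM21 on GRCm38. Its level was 197, 205 and 190.2 CPM in the 3 libraries at E14 and 58.1, 58.4 and 55.5 CPM at E17. At P1 it was 9.81, 5.42, 9.50 and 10.2 CPM in the 4 libraries. No library of one of these ages reached the range of the next. Atoh7 fell at each step by the limma test, by 1.77 on the log2(CPM + 1) scale from E14 to E17 (SE 0.26, adjusted p = 7.7e-06), by 2.62 from E17 to P1 (SE 0.25, adjusted p = 2.7e-09) and by 2.66 between P1 and P6 (SE 0.25, adjusted p = 1.5e-10). The first of these steps lost its call with a pseudocount of 0.1 in place of 1 (log2 fold change -1.78, adjusted p = 0.15). At P6 the libraries held 5, 7 and 1 reads, and from P15 to P60 no library held more than 8 reads. Neither the next step, to P15 (adjusted p = 0.52, limma), nor later steps passed the test. The embryonic mean was 352-fold the mature mean, which is the mean of the P15, P28 and P60 age means. This mature mean was 0.362 CPM, with 3 of 14 libraries at 0 reads, so that the fold is imprecise.

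Foxn4 (chr5:114254164-114273807, minus strand) was retained up to P1 and then almost entirely lost by P6. Its level was 140.0, 133 and 128 CPM at E14, 102, 99.9 and 113 CPM at E17, and 70.9, 73.4, 63.9 and 63.8 CPM at P1. At P6 the values were 0.565, 0.973 and 0.965 CPM, or 4 to 9 reads. Thus, all libraries of P1 lay far above those of P6. Foxn4 fell by 5.24 on the log2(CPM + 1) scale from P1 to P6 (SE 0.16, adjusted p = 2.5e-22, limma), an 81.5-fold decrease in the mean, with all 3 libraries lower. The difference from E17 to P1, -0.62 (adjusted p = 0.0097, limma), was below the minimum change of 1 used for a call, and its adjusted p reached 0.073 with 1 library left out and 0.56 under a pseudocount of 0.1. All 14 mature libraries held 3 reads or fewer, and 10 of them held 0. The embryonic level was at least 282-fold higher than the mature level, with the limit of 3 reads set in each library.

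Neurog2 (chr3:127633135-127635631, plus strand) declined more gradually. Its level was 99.0, 98.7 and 93.2 CPM at E14, 111, 107 and 114 CPM at E17, and 53.1, 56.1, 49.5 and 49.7 CPM at P1. At P6 it was 7.91, 11.5 and 7.45 CPM, and at P15 it was 2.14, 1.71, 2.07 and 0.825 CPM. The libraries of each age lay below those of the age before from E17 to P15. Neurog2 fell by 1.07 from E17 to P1 on the log2(CPM + 1) scale (SE 0.23, adjusted p = 0.0014, limma), a step that lost its call with a pseudocount of 0.1 (log2 fold change -1.09, adjusted p = 0.071). A larger decrease of -2.44 followed at P6 (SE 0.23, limma adjusted p = 1.7e-10), and another of -1.90 at P15 (limma adjusted p = 6.2e-08). In contrast to Foxn4, a low level remained in the adult, with a lowest value of 0.376 CPM, a median of 1.24 CPM and a highest of 2.75 CPM over the 6 libraries at P60, or 3 to 21 reads.

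Olig2 (chr16:91225457-91228677, plus strand), a bHLH gene that specifies oligodendrocytes in the brain and marks a subset of progenitors in the retina, was 21.6, 17.2 and 19.8 CPM at E14 and 30.1, 30.4 and 32.6 CPM at E17. At P1 it was 24.5, 22.3, 20.8 and 23.3 CPM, and at P6 it was 1.55, 2.60 and 3.59 CPM. The E14 and P1 libraries overlapped, and those of E17 lay above both. Neither the difference from E14 to E17, 0.65 (adjusted p = 0.017, limma), nor that from E17 to P1, -0.43 (adjusted p = 0.12, limma), met both criteria of a call. Olig2 fell by 2.77 from P1 to P6 on the log2(CPM + 1) scale (SE 0.17, adjusted p = 1.1e-14, limma) and by 1.75 more by P15 (SE 0.17, limma adjusted p = 1.1e-09). From P15 onward 13 of 14 libraries held 0 reads and the other held 1, so that the embryonic level was at least 59.8-fold higher. The 5 oligodendrocyte markers summed to 37.1 to 49.1 CPM up to P6 and to 23.2 to 35.9 CPM from P15, with Mag near 0 at all ages. Mbp made up most of the sum, with means of 17.9 to 31.7 CPM. Mog averaged 3.21 to 6.40 CPM up to P6 and 0.532 to 1.44 CPM later. It was called lower in mature than embryonic retina (log2 fold change -1.83, adjusted p = 2.9e-10, limma). Sox10 went the other way, from 0.133 to 0.244 CPM up to P6 to 0.882 to 1.32 CPM later, but was not called (0.74). The part of these cells in the Olig2 result was not tested.

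Ptf1a (chr2:19445663-19447501, plus strand) was measured with few reads. Its level was 3.30, 3.59 and 3.68 CPM at E14, 6.24, 8.03 and 8.18 CPM at E17, and 5.27, 5.04, 4.75 and 6.03 CPM at P1, whereas all 3 libraries at P6 held 0 reads. The libraries of E17 lay above those of E14 and P1, and the P6 libraries lay apart from all of these. Ptf1a fell by 2.65 on the log2(CPM + 1) scale from P1 to P6 (SE 0.16, adjusted p = 6.4e-15, limma), and the P1 level was at least 12.4-fold higher. The difference from E14 to E17, 0.90 (adjusted p = 2.8e-04, limma), was below the minimum change, but was called without E17 replicate 1 (log2 fold change 1.01) and by edgeR (log2 fold change 1.06, adjusted p = 0.022). With a pseudocount of 0.1 in the limma fit its adjusted p was 0.26. At P15, 3 of 4 libraries held 3 reads each and 1 held 0. The step from P6 to P15 did not pass the main limma test (log2 fold change 0.35, adjusted p = 0.089). It was called by edgeR (4.39, adjusted p = 0.012) and by limma with a pseudocount of 0.1 (1.71, adjusted p = 0.0076). These values rest on very few reads. Exons of Ptf1a overlap an antisense gene, Ptf1aos, which averaged 1.93, 3.38 and 2.26 CPM at E14, E17 and P1 and 0 CPM at P6. Whether counting used the strand is not given in the sources used here, and reads of this pair may therefore be shared.

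The remaining genes outlasted this early set. Neurod4 (chr10:130268152-130280240, minus strand) was 105, 100.3 and 99.7 CPM at E14, 206, 199 and 186 CPM at E17, and 536, 437, 513 and 558 CPM at P1. It was 467, 502 and 523 CPM at P6. The P1 and P6 libraries overlapped and lay above those of all other ages. Neurod4 rose by 1.36 from E17 to P1 on the log2(CPM + 1) scale (SE 0.08, adjusted p = 1.2e-13, limma), with all 4 libraries higher. The difference of 0.95 from E14 to E17 (adjusted p = 9.4e-10, limma) was just below the minimum change, and P1 and P6 differed by 0.03 (adjusted p = 0.79, limma).

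At P15 Neurod4 was 235, 242, 261 and 238 CPM, and at P28 it was 217, 196, 191 and 173 CPM. The 6 libraries at P60 had a lowest value of 143 CPM, a median of 150.3 CPM and a highest of 174 CPM. Thus, the P15 libraries lay below those of P6, and those of P28 and P60 overlapped at the edge. Neurod4 fell by 1.02 from P6 to P15 (SE 0.08, adjusted p = 1.7e-11, limma), a change that sat at the threshold and dropped just under it with median-of-ratios scaling (log2 fold change -0.95), edgeR (-0.96) or without P6 replicate 3 (-0.99). The adult level was 1.51-fold that of E14, and all 6 libraries at P60 exceeded all 3 at E14. This difference passed the limma test (log2 fold change 0.59, adjusted p = 4.3e-08) but not the minimum change.

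Insm1 (chr2:146221921-146225020, plus strand) was highest at P6. Its level was 55.8, 55.7 and 57.9 CPM at E14, 70.6, 62.9 and 73.3 CPM at E17, and 95.9, 84.8, 71.0 and 78.0 CPM at P1. At P6 it was 188, 212 and 180.1 CPM, and at P15 it was 27.8, 30.3, 31.1 and 28.04 CPM. The P6 libraries lay above, and the P15 libraries below, all libraries of the earlier ages. Insm1 rose by 1.22 from P1 to P6 (SE 0.11, adjusted p = 4.3e-11, limma) and fell by 2.68 from P6 to P15 (SE 0.11, adjusted p = 8.2e-19, limma), a 6.59-fold decrease in the mean. The earlier steps of 0.28 (adjusted p = 0.13, limma) and 0.25 (adjusted p = 0.17, limma) did not pass the test. The adult level, 20.1 to 22.9 CPM over the 6 libraries at P60 with a median of 21.5 CPM, was 11.1% of the peak.

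Neurod2 (chr11:98325415-98329648, minus strand) followed the opposite course. All 3 libraries at E14 held 0 reads, and the level was 1.23, 1.94 and 1.66 CPM at E17 and 7.11, 6.30, 3.96 and 5.09 CPM at P1. It was 10.3, 13.4 and 10.8 CPM at P6 and 11.8, 11.7, 10.2 and 17.6 CPM at P15. The ages up to P6 did not overlap, while those from P6 to P60 did. Neurod2 rose by 1.37 from E14 to E17 on the log2(CPM + 1) scale (SE 0.19, adjusted p = 3.1e-06, limma) and by 1.33 from E17 to P1 (SE 0.18, adjusted p = 3.2e-06, limma). The step to P6, 0.93 (adjusted p = 9.2e-05, limma), was below the minimum change but was called by edgeR (log2 fold change 1.09), and without P1 replicate 1 (1.04) or P6 replicate 1 (1.001). The 6 libraries at P60 held 10.4 to 13.9 CPM with a median of 11.9 CPM, at least 38.7-fold higher than E14. Ranked by mean, no neighbouring levels from P6 to P60 differed beyond the spread, the lowest adjusted p being 0.84 (limma), and the step from P6 to P15 had an adjusted p of 0.64 (limma).

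**Figure D2:**
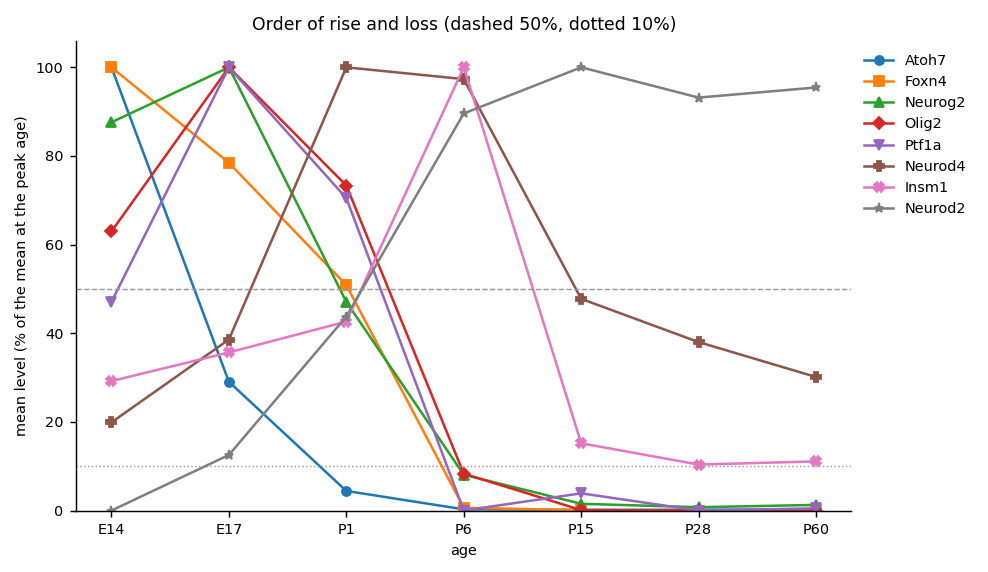
Mean level of each gene as a percentage of its mean at the peak age (linear axis) at 7 ages, with dashed and dotted lines at 50% and 10%. The mean of Atoh7 is under 10% by P1 and those of Foxn4, Ptf1a, Neurog2 and Olig2 by P6, whereas Neurod4, Insm1 and Neurod2 are at 30.1%, 11.1% and 95.4% at P60.

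The order of loss was set by the first age at which every library was under 50%, and under 10%, of the mean at the peak age. Atoh7 was under 50% at E17, Foxn4, Neurog2, Olig2 and Ptf1a at P6, Insm1 at P15 and Neurod4 at P28. Atoh7 was under 10% at P1, Foxn4 and Ptf1a at P6, and Neurog2 and Olig2 at P15. Some of these steps rest on 1 library near the limit. At P1 Neurog2 averaged 47.1% of its peak with a highest library of 50.7%, and at P15 Neurod4 averaged 47.8% with a highest library of 51.2%. At P6 the means of Neurog2 (8.08%) and Olig2 (8.31%) were already under 10%, with highest libraries of 10.4% and 11.6%. Foxn4 at P1 was at the 50% limit, with libraries from 47.7% to 54.9%. By this rule of every library, Neurod4 and Insm1 never fell under 10% and Neurod2 never fell under 50%. Insm1 came near the limit at P28, with a mean of 10.4% of its peak and a lowest library of 8.71%.

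To ask whether neighbours in this order differed, the ratio of each of 28 pairs of genes within a library was compared between ages by a two-sided exact permutation test over libraries, with a pseudocount of 0.1 CPM. From embryonic retina (6 libraries) to P1 (4 libraries), 23 of 28 pairs differed in their change, each at an adjusted p of 0.012 by the exact test. Atoh7 changed by -3.63 on the log2 scale and Neurog2 by -0.99, a difference of -2.64 that held at the smallest p the exact test allows (0.0095). Foxn4 changed by -0.80, and its difference of 0.19 from Neurog2 did not pass (adjusted p = 0.35, exact test). Olig2 (-0.11) and Ptf1a (0.04) were not separated either (adjusted p = 0.35, exact test), whereas Olig2 and Foxn4 differed by 0.69 in size (exact test, adjusted p = 0.012).

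From embryonic retina to P6 (3 libraries), Ptf1a had no reads and its change is set by the pseudocount. Of the 21 pairs without it, 18 differed, each at an adjusted p of 0.028 by the exact permutation test. The other 3 pairs were Atoh7 (-7.60) with Foxn4 (-7.02; exact adjusted p = 0.49), Neurog2 (-3.55) with Olig2 (-3.28; exact adjusted p = 0.49), and Neurod4 (1.81) with Insm1 (1.63; exact adjusted p = 0.50). These 3 pairs were not separated, which does not show that they changed alike, and Atoh7 held 1 to 7 reads at P6. Atoh7 and Foxn4 were each lowered more than Neurog2 and Olig2, although with 1 of the 3 libraries at P6 left out the exact test can no longer pass for any pair. Neurod2 had the largest increase, 4.81 on this scale, a value that depends on the pseudocount since E14 held 0 reads.

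**Figure D3:**
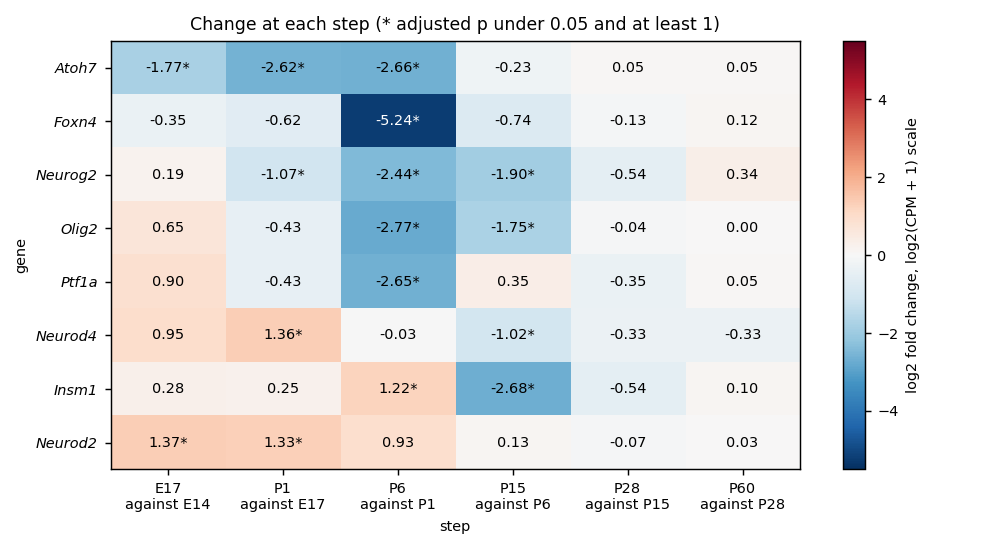
Log2 fold change on the log2(CPM + 1) scale (colour and number) of each gene at 6 successive steps; an asterisk marks an adjusted p under 0.05 (limma) with a change of at least 1. The step from P1 to P6 holds 5 decreases, the largest being -5.24 in Foxn4, and 1 increase, Insm1.

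Counted over the genes, 1 was called higher (Neurod2) and 1 lower (Atoh7) from E14 to E17, where 2.90% of all tested features were higher and 0.702% lower. From E17 to P1, 2 were higher (Neurod4 and Neurod2) and 2 lower (Atoh7 and Neurog2), against 1.23% and 0.614% of features. From P1 to P6, 1 was higher (Insm1) and 5 were lower (Atoh7, Foxn4, Neurog2, Olig2 and Ptf1a), against 6.30% and 6.74%. From P6 to P15, 4 were lower (Neurog2, Olig2, Neurod4 and Insm1), against 3.31%. Between mature and embryonic retina 1 was higher (Neurod2) and 6 were lower, against 14.9% and 16.1% of features. The genes were chosen with the time courses known, and these counts are descriptions.

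After P15 no gene reached the minimum change of 1 at the step from P15 to P28 or from P28 to P60. Over the whole span from P15 to P60, Neurod4 differed by -0.66 (adjusted p = 4.3e-08, limma) and Insm1 by -0.43 (adjusted p = 7.7e-04, limma). Both differences were below the minimum change. From P15 to P28, 0 genes were called by limma, against 0.384% of features, and edgeR called 0. From P28 to P60, 0 were called by limma, against 0.453% of features, and edgeR again called 0. By adjusted p alone, which 1.58% of features passed as lower at the first of these steps and 8.11% at the second, Insm1 differed by -0.54 (adjusted p = 0.0011, limma) and Neurod4 by -0.33 (adjusted p = 0.011, limma) from P15 to P28, and Neurod4 by -0.33 from P28 to P60 (adjusted p = 0.0056, limma).

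Levels between genes were compared per kilobase of exon (CPM per kb, using the GENCODE vM21 exon union). Atoh7 was highest at E14 with 121 ± 4.57 CPM per kb (SD, n = 3), followed by Neurog2 with 43.5 ± 1.49, Foxn4 with 39.7 ± 1.75 and Neurod4 with 30.4 ± 0.875 CPM per kb. At E17 Neurod4 led with 58.9 ± 2.91 CPM per kb, then Neurog2 with 49.7 ± 1.56. Neurod4 was 153 ± 15.8 CPM per kb at P1 and 46.0 ± 3.64 at P60 (n = 6), when Insm1 held 6.92 ± 0.345 and Neurod2 3.90 ± 0.405 CPM per kb. Thus, the leading gene of the 8 passed from Atoh7 at E14 to Neurod4 from E17 onward. Annotation of the isoforms used by the authors for counting is not given in the sources used here, and these lengths may differ from theirs.

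Markers of progenitors and dividing cells were followed beside the early genes. The summed level of 6 markers was 4674 to 4831 CPM at E14, 4366 to 4770 CPM at E17, 4106 to 4480 CPM at P1 and 553 to 621 CPM at P6. Mki67, a marker of dividing cells, differed by -0.03 from E17 to P1 on the log2(CPM + 1) scale (SE 0.32, adjusted p = 0.99, limma), and Ccnd1, a G1 cyclin, by 0.03 (SE 0.12, adjusted p = 0.94, limma). Fgf15, a growth factor gene of progenitors in the same list, fell by 2.21 (SE 0.23, adjusted p = 1.7e-08, limma). At this step Atoh7 and Neurog2 fell by 2.62 and 1.07 on the same scale. From P1 to P6, where 5 of the 8 genes fell, Mki67 fell by 5.11 (adjusted p = 1.2e-14, limma) and Ccnd1 by 4.22 (adjusted p = 2.0e-23, limma). The part of the number of progenitors in these results was not tested.

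**Figure D4:**
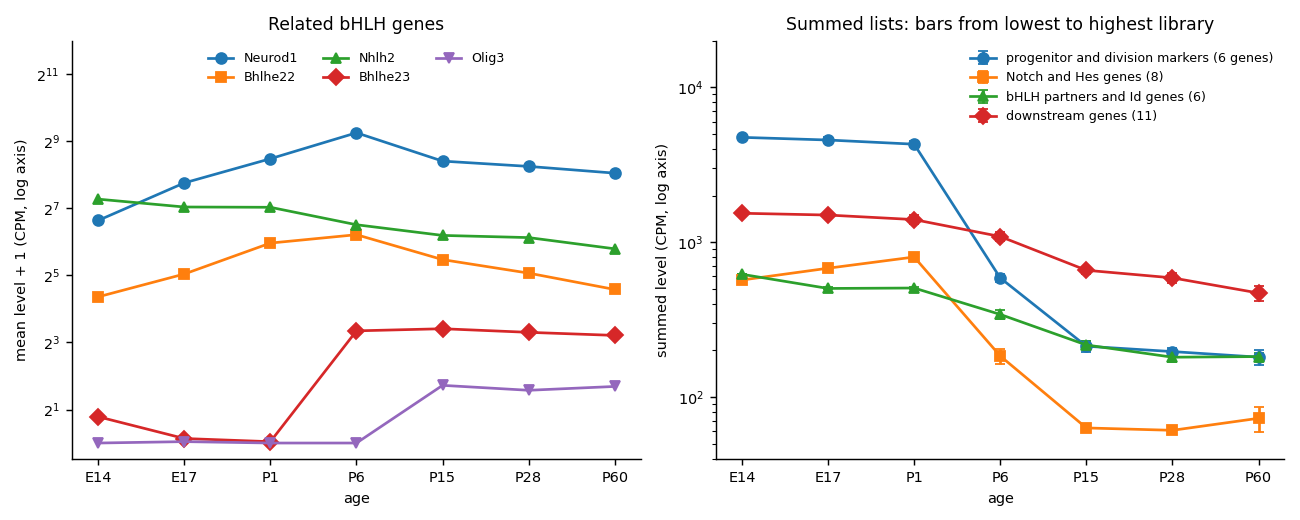
Left, mean level + 1 of 5 related bHLH genes in CPM (log axis); right, summed level in CPM (log axis) of 4 gene lists, with bars from the lowest to the highest library, at 7 ages. Neurod1 peaks at P6 with 610 CPM, and the progenitor sum drops from at least 4106 CPM at P1 to at most 621 CPM at P6.

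Related bHLH genes moved in both directions. Of 12 listed genes 10 were in the table and 8 were tested. Of these 8, 3 rose and 3 fell between embryonic and mature retina, calls made for 14.9% and 16.1% of all features. The median log2 fold change was -0.23, against -0.06 over all features. Nhlh1 fell by 1.33 (adjusted p = 2.2e-10, limma). Bhlhe23 rose by 2.83 (adjusted p = 1.3e-20, limma) and Olig3 rose by 1.61 (adjusted p = 3.4e-13, limma). Neurod1, a photoreceptor and amacrine factor closely related to Neurod4, averaged 98.7 CPM at E14, 610 CPM at P6 and 264 CPM at P60, with its highest mean at P6.

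Of the E protein and Id genes, 5 of 6 tested fell between embryonic and mature retina (median -2.16), a call made for 16.1% of all features. The largest decreases were in Id2 (-3.07), Id1 (-2.75), Tcf3 (-2.22), which encodes an E protein, and Id3 (-2.10), with adjusted p of at most 3.6e-16 (limma). All 8 Notch and Hes genes fell between embryonic and mature retina (median -3.31), against the same 16.1% of features. They included Dll4 (-4.15), Hes6 (-3.65), Hes5 (-3.44) and Dll3 (-3.36), with adjusted p of at most 4.1e-22 (limma). Of the Notch and Hes genes, 7 of 8 fell from P1 to P6, a call made for 6.74% of features (median -2.10, against -0.03 over all features). Atoh7, Foxn4, Neurog2, Olig2 and Ptf1a fell at this step as well. From P6 to P15, 6 of the 8 Notch and Hes genes fell, a call made for 3.31% of features (median -1.19, against -0.06 over all features).

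Among 11 genes known to act downstream of the 8 factors, 7 fell between embryonic and mature retina (median -1.09), a call made for 16.1% of all features. From E14 to E17, 2 fell and 4 rose, against 0.702% and 2.90% of features. Pou4f2, a ganglion cell gene that depends on Atoh7, fell by 1.51 (adjusted p = 3.4e-07, limma) and Onecut2 fell by 1.11 (adjusted p = 1.2e-06, limma). Tfap2a, Tfap2b and Tfap2c, a family with members in amacrine cells downstream of Ptf1a, rose by 2.66, 2.32 and 2.09 (adjusted p of at most 8.9e-12, limma), and Pou4f3 rose by 1.28 (adjusted p = 0.0089, limma). The ganglion cell gene Pou4f1 differed by 0.85 (adjusted p = 2.2e-06, limma), below the minimum change, so that the 3 Pou4f genes did not move one way. Of 3 family relatives, Foxn2, Foxn3 and Insm2, Insm2 alone was called between embryonic and mature retina, and fell by 2.25 (adjusted p = 3.7e-15, limma).

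Genes with the most similar course were ranked by Pearson r of 7 age means on the log2(CPM + 1) scale among 12395 candidates, as a description over means of the same libraries. Atoh7 was most like Nr0b1 (r = 0.998), Crabp2 (r = 0.998) and Irx2 (r = 0.996). Foxn4 was most like Hells, Gli1 and Kif2c, each with r above 0.999. Neurog2 was nearest to Gmeb1, Srbd1 and Plin2, and Olig2 to Chst11, Fat1 and Plekho1, with r above 0.998. Ptf1a followed Krt73 (r = 0.995), Mast4 (r = 0.994) and Gpc3 (r = 0.993). Neurod4 was nearest to Dok6 (r = 0.987), Apc (r = 0.981) and Bhlhe22 (r = 0.978), Insm1 to Usp49 (r = 0.995), Piezo2 (r = 0.993) and Zfp536 (r = 0.993), and Neurod2 to Fam214a (r = 0.998), Frmd4b (r = 0.996) and Lurap1l (r = 0.996). A high r does not imply an equal range, since Gmeb1 averaged 92.5 CPM at E14 and 53.8 CPM at P60 while Neurog2 averaged 97.0 and 1.41 CPM.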

How the data were processed

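RNA-seq of 27 libraries of whole mouse retina, covering 7 ages, was analyzed. The authors prepared libraries with a SMARTer total RNA kit, aligned reads with STAR to mm10 (per the labels) and deposited 1 table of CPM values. The annotation and strand setting of the counting are not given in the sources used here. Dividing by the smallest step of a library returned whole reads for 100.0% of values (tolerance 0.05 reads), although in E14 replicate 1 the step lies near a round decimal and could not be judged automatically.

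Libraries were grouped by age from the labels. The deposited values were transformed to log2(CPM + 1), which understates changes of low genes. The 31760 of 38168 features that reached 1 CPM in 3 or more libraries entered a limma 3.58.1 fit (trend, R 4.3.3) of age over the 27 libraries. P-values, two-sided, were adjusted by Benjamini-Hochberg across these features, and a gene was called (rose or fell) when the adjusted p was under 0.05 and the log2 fold change was 1 or more in size. Pairs of genes were compared by exact permutation tests (Python 3.11.15, scipy 1.17.1). The 8 genes were all named, with the 3 most similar genes for each (candidates with a highest age mean of at least 5 CPM) and up to 4 per list with the largest mature against embryonic change. Genes named from a list at single steps, Neurod1, the markers and Ptf1aos were chosen after their values were seen. Some listed genes are counted but not reported singly. The genes and lists were chosen with earlier results of these data known.

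Alternatives were a pseudocount of 0.1, no filter, a mean of at least 10 CPM, median-of-ratios scaling, a replicate block, edgeR 4.0.16 (quasi-likelihood, TMM) on recovered reads, the compared ages only, adjusted p alone, summed entries and leaving out each library. Fits were tested on simulated data. Same-age libraries differed by more than sampling noise (lowest chi-square per degree of freedom, 1.72). The labels do not say that replicates are separate litters or mice, and p-values measure the spread between these libraries.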

Additional observations from a re-analysis of the deposited data

Results flagged for a closer look

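Atoh7 at P1 was the only value that stood apart among 22 groups of 4 to 6 libraries tested. The library P1 replicate 2 held 5.42 CPM, against a median of 9.81 CPM in the other 3 libraries. Its gap to the nearest library was 0.858 of the whole range of the group, above the limit for 4 libraries. About 1 in 20 groups is expected to pass this limit by chance.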

How the results depend on the processing

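Counts of called genes kept to within 1.5 times of the reported value under most alternatives, and no called change of a single gene turned direction (of 1003 alternative values, 977 stayed on their side of the call, 5 lost it and 21 gained it). Uncalled differences near 0 could change sign, as for Atoh7 from P15 to P28, 0.05 and, with a pseudocount of 0.1, -0.08. From E14 to E17 the count of 2 became 1 with a pseudocount of 0.1, 1 with a mean of at least 10 CPM and 5 by adjusted p alone. From P15 to P28 the count of 0 became 1 with a pseudocount of 0.1 and 2 by adjusted p alone, and from P28 to P60 it became 1 by adjusted p alone. With a mean of at least 10 CPM, which leaves 5 of the genes in the test, the count between mature and embryonic retina was 4 in place of 7, and that of the F test was 5 in place of 8. Leaving out 1 library at a time gave 2 to 3 genes from E14 to E17, 4 to 4 from E17 to P1, 6 to 7 from P1 to P6, 3 to 4 from P6 to P15, 0 to 0 at both later steps, 7 to 7 between mature and embryonic retina and 8 to 8 in the F test. Pairs that differed in change numbered 23 to 24 at P1 and 0 to 24 at P6. The 0 arises since 2 libraries at P6 against 6 allow no exact p below 0.0714.

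Libraries with the same replicate number did not deviate together (69 pairs, r from -0.129 to 0.167, median -0.00178), so that the numbers do not pair the samples. The replicate block gave the same counts, 2, 4, 6, 4, 0, 0, 7 and 8. The depth limits statements on Foxn4, Olig2 and Ptf1a after P6 and on Neurod2 at E14, where all libraries held 3 reads or fewer, and a fitted log2 fold change there depends on the pseudocount. Foxn4 from P6 to P15, -0.74 in the limma fit, was -2.44 with a pseudocount of 0.1 and -2.87 by edgeR, and the same alternatives called Ptf1a from P6 to P15.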
